A study of Mus musculus with 10 samples.

Results

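The 10 genes described here encode the intracellular relay of Toll-like receptor (TLR) signalling in mouse macrophages: the adaptors Myd88, Tirap, Ticam1 and Ticam2, the kinases and pseudokinases Irak1, Irak2, Irak3 and Irak4, and the ubiquitin ligases Traf3 and Traf6. They were found by gene symbol among the 45318 gene rows of the deposited table, and 10 of 10 had a row. All 10 passed the filter on low values (at least 10 in at least 2 libraries), as did 13171 genes in all. Their levels were high enough in every library that none entered through 1 group only, since the lowest value of any member was 20.4 CPM. The cells were bone marrow derived macrophages, primary macrophages grown out of marrow, from C57BL/6 mice labelled wild type (WT) or Tlr4 -/- (KO). There were 5 groups of 2 libraries: untreated WT cells, untreated KO cells, WT and KO cells taken after 6 h in medium with 5% FBS and 2% BSA (the control medium), and KO cells that had first been given Poly(I:C), which is a double-stranded RNA made by synthesis. WT and KO below stand for these labels. The labels give no medium or time for untreated cells, and no dose, time or serum for Poly(I:C). Poly(I:C)-treated WT cells were not analysed here. Nothing in the labels says that the 2 libraries of a group came from separate animals or cultures, so the p-values reflect the spread of such library pairs, which may be technical.

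TLRs and IL-1 family receptors share a cytosolic TIR domain that recruits adaptors. MyD88 serves nearly all of them and assembles IRAK4, IRAK1 and IRAK2 into a complex, the Myddosome, which passes the signal to TRAF6 and on to NF-kB and MAP kinases. TIRAP (also MAL) bridges MyD88 to TLR2 and TLR4 at the plasma membrane. TRIF, the product of Ticam1, is the adaptor of TLR3, the receptor for double-stranded RNA, and it serves TLR4 through the bridging adaptor TRAM, the product of Ticam2. TRIF signals through TRAF3 to interferon genes. IRAK-M, the product of Irak3, is a pseudokinase enriched in monocytes and macrophages and known as a brake on the Myddosome.

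Deposited totals were 25.2 to 51.7 M units a library, from an estimated 18.3 to 56.5 M reads. On the first principal component, which held 83.4% of the variance, the 4 libraries of WT control and Poly(I:C)-treated KO cells were separated from the remaining 6. Tlr4 itself was present in every library labelled KO. Untreated, it was at 44.4 and 44.9 CPM in KO and 60.1 and 69.1 in WT libraries, without overlap. In control medium it was at 30.8 and 34.6 CPM in KO and 32.3 and 39.0 in WT libraries, which overlapped. The Poly(I:C)-treated KO libraries stood at 47.9 and 63.4 CPM. The single value per gene does not show which exons were read. Every direction between genotypes therefore rests on the labels. Of the macrophage markers, 7 of 7 stood above 1 CPM in every group, with Adgre1 at 2894 to 4361 CPM and Csf1r at 1338 to 2086 CPM. T cell markers Cd3e, Cd3g and Cd8a and the NK cell marker Ncr1 were listed at 0 in all 10 libraries, as were the mast cell markers Cpa3, Mcpt4 and Fcer1a. From the same lists, Cd4 was at 0.438 to 1.64 CPM, Klrb1c at 0.0324 to 0.198 and Kit at 0 to 1.18. The mast cell sum was 0.643 to 1.18 CPM in WT control and Poly(I:C)-treated KO libraries and at most 0.199 in the others. Dendritic cell markers stayed at or below 0.491 CPM. Pf4 (199 to 385 CPM) and Ppbp (18.1 to 151 CPM) made up most of the erythroid and platelet sum. Pecam1 (20.1 to 31.5 CPM) made up most of the stromal and endothelial sum. The 8 neutrophil markers summed to 78.0 to 103 CPM in WT control and Poly(I:C)-treated KO cells and to 13.8 to 30.6 CPM in the other groups. Most of that sum came from S100a8 and S100a9, while the defining neutrophil gene Ly6g stayed at or below 0.220 CPM. The 5 B cell markers summed to 37.0 to 53.0 CPM in the untreated and KO control libraries and to 7.53 to 11.4 CPM in WT control and Poly(I:C)-treated KO libraries. That sum was almost all Cd79b (7.48 to 52.9 CPM), while the defining B cell genes Pax5 and Ms4a1 stayed at or below 0.0662 CPM. The neutrophil, B cell and mast cell sums moved with the results below, and their part in them was not tested.

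In untreated macrophages the 10 genes differed widely in level per length of transcript, given here as CPM per kb of annotated exon. Irak3, the IRAK-M brake, was the highest in untreated cells, at 71.0 ± 6.01 CPM per kb (SD, n = 2) under the WT label and 74.1 ± 4.14 under the KO label. Myd88 followed at 27.7 ± 0.959 and 25.1 ± 1.18 CPM per kb. Irak2, Irak1 and Ticam1 lay close together, at 17.1 ± 1.41, 15.6 ± 0.818 and 15.8 ± 0.186 CPM per kb in WT cells, where the ranges of Ticam1 and Irak1 overlapped. Ticam2 (7.38 ± 0.754 CPM per kb) and Irak4, the kinase that starts the Myddosome cascade (6.33 ± 0.0177), came next and overlapped in untreated KO cells but not in untreated WT cells. Traf3 (4.78 ± 0.548) and Tirap (4.35 ± 0.317) overlapped in both, and Traf6 was the lowest at 3.28 ± 0.208 CPM per kb.

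Untreated KO and WT cells showed no detectable difference in any of the 10 genes. With limma over all genes, 0 of 10 members passed, 0 had an unadjusted p under 0.05, and 0.167% of all genes were called. The log2 differences ran from −0.15 for Ticam1 (95% interval of −0.32 to 0.0083) to 0.068 for Tirap (95% interval of −0.13 to 0.27). With 2 libraries per group, true differences of any size inside these intervals remain compatible with the data.

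**Figure D1:**
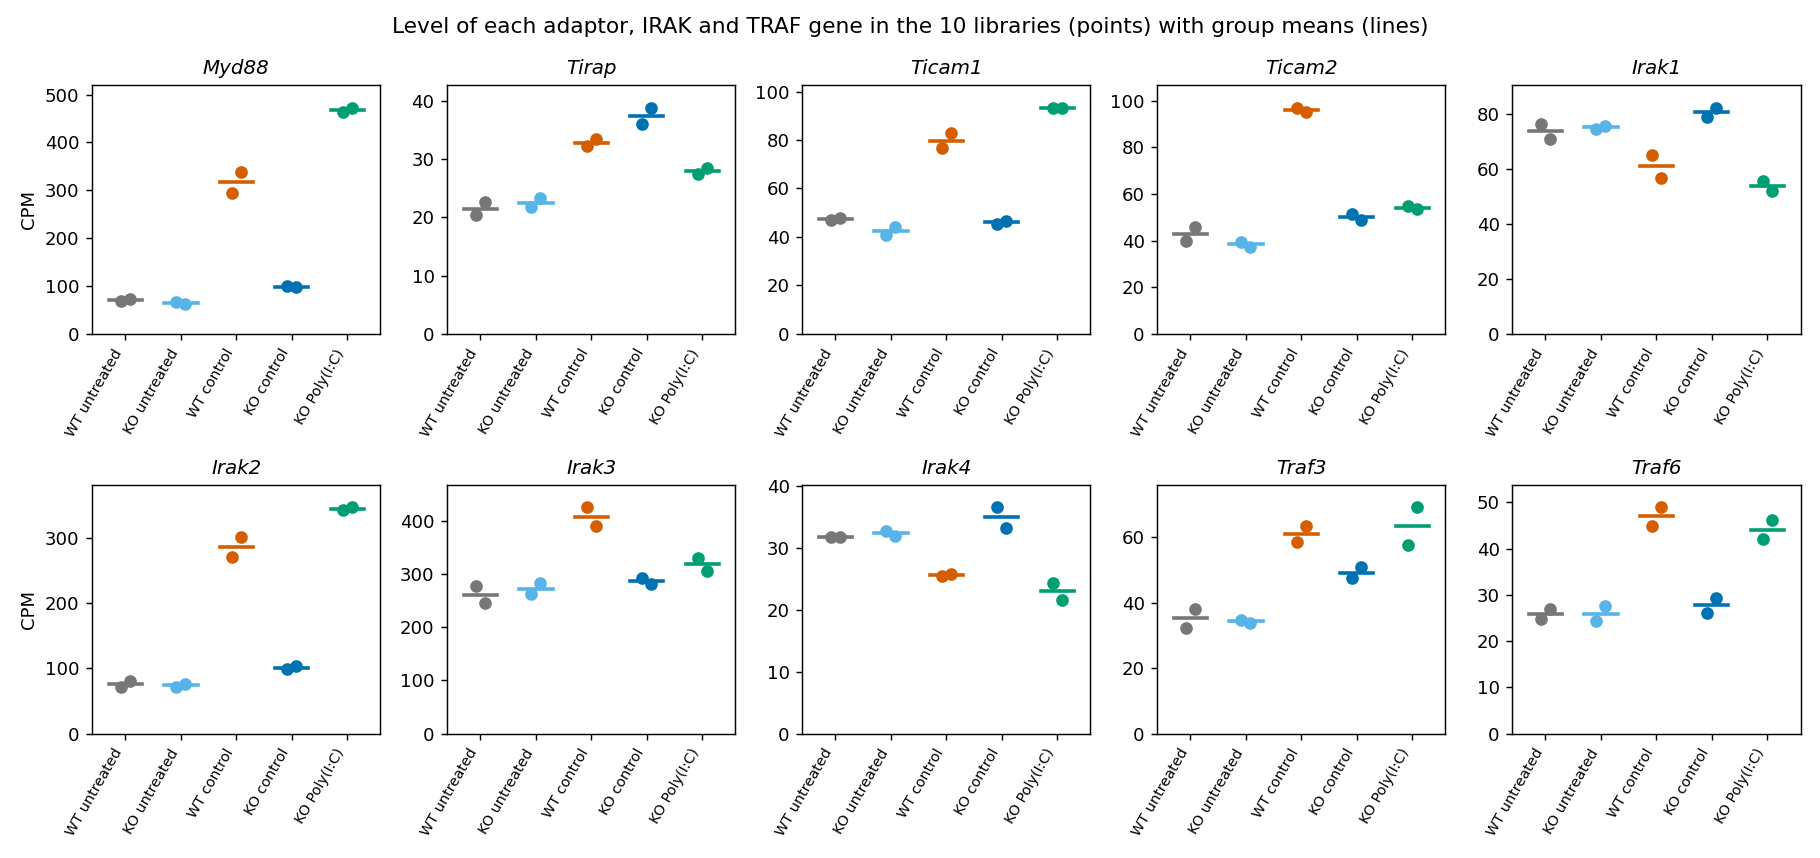
CPM (vertical axes, linear and starting at 0) of each of the 10 genes in the 5 groups; points are libraries and lines are means of 2. Myd88 and Irak2 are high in WT control and in Poly(I:C)-treated KO libraries, Ticam2 is highest in the WT control libraries, and Irak1 and Irak4 are lowest in those 2 groups.

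Myd88 (ENSMUSG00000032508, chr9:119335934-119341411, GRCm38) had the largest changes of the 10 in WT control and in Poly(I:C)-treated cells. It stood at 69.6 and 73.1 CPM in the untreated WT libraries, 66.8 and 62.5 in untreated KO, 294 and 339 in WT control, 99.4 and 97.7 in KO control and 463 and 473 in Poly(I:C)-treated KO libraries. The WT control and Poly(I:C) groups were far above the rest and did not overlap each other. In WT cells the control medium was associated with a rise of 4.42-fold over untreated cells (log2 2.15, SE 0.079, limma adjusted p = 1.37e-08), in KO cells with a rise of 1.52-fold (log2 0.61, SE 0.079, limma adjusted p = 0.000798). The WT and KO responses differed by a log2 of −1.54 (SE 0.11, limma adjusted p = 3.78e-06). In Poly(I:C)-treated KO cells Myd88 was 7.23-fold above untreated KO cells (log2 2.85, SE 0.079, limma adjusted p = 1.22e-09). In bulk samples such as these, fewer cells of a type and less RNA per cell cannot be told apart. Myd88 shares 290 exon bases with Acaa1a on the opposite strand, and Acaa1a rose in the same 2 groups (0.96 in WT control against untreated cells); how much of either value comes from shared bases was not tested.

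Promoter windows of 250 bases before and 50 after the start were found for 9 of the 10 genes in RefSeq (GRCm38.p6), in 12 windows, and each was searched on both strands for the NF-kB consensus, the interferon-stimulated response element GAAANNGAAA (ISRE) and the STAT element TTCNNNGAA (GAS). Over all 32851 windows of this length, 4.51% held the first, 3.44% the second and 8.3% the third. Of the 2 steepest genes, Myd88 and Irak2, the sequences before the start are shown because they differ in these letters, with matches in capitals. The Myd88 stretch is the 227 bases at chr9:119340042-119340268 on the minus strand, with 23 annotated exon bases next to the start left off, and it lies inside the span that GENCODE gives Myd88. The Irak2 stretch is the 250 bases at chr6:113638217-113638466 on the plus strand.
Myd88: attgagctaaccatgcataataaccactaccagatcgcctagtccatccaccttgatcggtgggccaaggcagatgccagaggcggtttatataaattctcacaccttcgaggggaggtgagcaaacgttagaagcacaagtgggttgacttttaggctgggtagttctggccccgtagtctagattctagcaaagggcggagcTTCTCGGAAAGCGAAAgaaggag
Irak2: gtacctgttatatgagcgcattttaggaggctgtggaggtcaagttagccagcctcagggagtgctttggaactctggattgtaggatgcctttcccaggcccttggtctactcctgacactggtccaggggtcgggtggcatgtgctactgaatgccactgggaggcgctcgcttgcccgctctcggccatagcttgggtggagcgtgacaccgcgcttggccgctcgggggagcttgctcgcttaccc
In Myd88 the ISRE letters GAAAGCGAAA begin 40 bases before the RefSeq start (chr9:119340049-119340058), and the GAS letters TTCTCGGAA (chr9:119340056-119340064) share 3 bases with them. No match to any of the 3 was found in the Irak2 window, which says only that these letters are not in it. The only other match among the members was in Traf3, an NF-kB match that ends at the last base before the start, shown with 10 bases on either side (chr12:111166360-111166369 for the match); it was chosen for printing after the search.
Traf3: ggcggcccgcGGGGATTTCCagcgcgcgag
These matches are descriptions of letters, and whether any factor binds there was not measured.

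Ticam1 (ENSMUSG00000047123, chr17:56269319-56276786), which encodes TRIF, was, like Myd88, high in WT control and Poly(I:C)-treated cells, by less. Its values were 46.9 and 47.6 CPM in untreated WT, 40.9 and 44.1 in untreated KO, 76.8 and 82.7 in WT control, 45.5 and 46.5 in KO control and 93.2 and 93.4 in Poly(I:C)-treated KO libraries. The WT control and Poly(I:C) libraries lay above all 6 others. Ticam1 rose in WT control cells (log2 0.75, SE 0.073, limma adjusted p = 9.05e-06) and in Poly(I:C)-treated KO cells relative to KO control cells (log2 1.02, SE 0.073, limma adjusted p = 8.12e-07). In KO control cells the difference from untreated cells was 0.12 (SE 0.073, limma adjusted p = 0.303), with a 95% interval of −0.046 to 0.28. The responses of the labels to the control medium differed by −0.64 (SE 0.10, limma adjusted p = 0.000719), a call lost when libraries were scaled by totals alone (−0.14, adjusted p = 0.225).

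Ticam2 (ENSMUSG00000056130, chr18:46557291-46574533), which encodes the TLR4 bridging adaptor TRAM, was highest in WT control cells. It stood at 39.7 and 45.9 CPM in untreated WT, 39.4 and 37.5 in untreated KO, 97.1 and 95.1 in WT control, 51.2 and 48.8 in KO control and 54.8 and 53.6 in Poly(I:C)-treated KO libraries. The WT control libraries alone stood apart, above all 8 others. Ticam2 rose 2.25-fold in WT control cells (log2 1.17, SE 0.083, limma adjusted p = 1.01e-06) and 1.30-fold in KO control cells (log2 0.38, SE 0.083, limma adjusted p = 0.0112). The KO call was lost without KO untreated 2, KO control 1 or KO control 2 (adjusted p = 0.0771, 0.0822 and 0.0713). Between Poly(I:C) and the control medium in KO cells the log2 difference was 0.12 (SE 0.083, limma adjusted p = 0.237), which turned to −0.60 with scaling by totals alone and passed at 0.32 with the deposited scaling. Relative to WT control cells, Poly(I:C)-treated KO cells were lower, at −0.82 (SE 0.083, limma adjusted p = 0.000301), and this call was kept in all 18 other settings. Ticam2 shares 838 exon bases with Tmed7, a cargo receptor gene on the same strand, so reads of the pair may have been divided between them. Tmed7 was at 149 ± 44.6 CPM in untreated WT, 180 ± 12.9 in untreated KO and 156 ± 6.63 in KO control cells. It was at 212 ± 12.1 CPM in WT control and 216 ± 5.33 in Poly(I:C)-treated KO cells (log2 0.027, limma adjusted p = 0.925). Tmed7 rose in WT control cells (log2 0.54, SE 0.16, limma adjusted p = 0.0123). In KO control cells its difference from untreated cells was −0.20 (limma adjusted p = 0.419). Tmed7 was higher with Poly(I:C) than with the control medium in KO cells (log2 0.47, limma adjusted p = 0.0238). It was lower in KO than in WT control cells (log2 −0.44, limma adjusted p = 0.0353). Its interaction was −0.75 (SE 0.22, limma adjusted p = 0.021), beside −0.79 (SE 0.12) for Ticam2. The rise in WT control cells and the interaction both use the untreated WT libraries, where Tmed7 spread widely.

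Tirap (ENSMUSG00000032041, chr9:35184551-35200291), the bridge between MyD88 and TLR2 or TLR4, rose in control medium in both WT and KO cells. It was at 20.4 and 22.6 CPM in untreated WT, 21.7 and 23.3 in untreated KO, 32.2 and 33.3 in WT control, 36.1 and 38.8 in KO control and 27.4 and 28.5 in Poly(I:C)-treated KO libraries. The KO control libraries were the highest and the untreated ones of both labels the lowest, and the Poly(I:C) libraries lay between them without overlap. The rise over untreated cells was 0.61 (SE 0.089, limma adjusted p = 0.000164) in WT and 0.73 (SE 0.089, limma adjusted p = 0.000551) in KO cells. Scaled by totals alone, the WT value was 0.078 and its call was lost (adjusted p = 0.414). The difference between these responses was 0.12 (SE 0.13, limma adjusted p = 0.456), with a 95% interval of −0.16 to 0.40, which became 0.62 (adjusted p = 0.00143) with scaling by totals alone and −0.040 with the deposited scaling. Tirap was lower with Poly(I:C) than with the control medium (log2 −0.42, SE 0.089, limma adjusted p = 0.00179), a call not kept with the deposited scaling (adjusted p = 0.078).

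Among the IRAK genes, Irak2 (ENSMUSG00000060477, chr6:113638467-113695026), which sustains late TLR signalling, had the steepest changes. Its values were 71.2 and 79.9 CPM in untreated WT, 72.1 and 76.7 in untreated KO, 271 and 301 in WT control, 98.8 and 104 in KO control and 342 and 347 in Poly(I:C)-treated KO libraries. The KO control libraries lay above all 4 untreated libraries and far below the WT control ones. The rise was 3.78-fold in WT control cells (log2 1.92, SE 0.081, limma adjusted p = 3.00e-08), 1.36-fold in KO control cells (log2 0.44, SE 0.081, limma adjusted p = 0.0047, adjusted p = 0.0629 without KO control 2) and 4.63-fold in Poly(I:C)-treated KO cells over untreated KO cells (log2 2.21, SE 0.081, limma adjusted p = 6.30e-09). The WT and KO responses to the control medium differed by −1.48 (SE 0.11, limma adjusted p = 6.06e-06).

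Irak3 (ENSMUSG00000020227, chr10:120141648-120202130), the brake, stood at 277 and 245 CPM in untreated WT, 262 and 283 in untreated KO, 425 and 389 in WT control, 291 and 280.0 in KO control and 331 and 305 in Poly(I:C)-treated KO libraries. WT control was the highest group and did not overlap any other. Irak3 rose in WT control cells (log2 0.64, SE 0.085, limma adjusted p = 8.65e-05), a call lost with scaling by totals alone (0.11, adjusted p = 0.329), where the median of all genes was −0.52. In KO control cells its difference from untreated cells was 0.070 (SE 0.085, limma adjusted p = 0.618). Between Poly(I:C) and the control medium in KO cells the difference was 0.15 (SE 0.085, limma adjusted p = 0.137), which passed with a replicate block within each label (adjusted p = 0.0423) with the deposited scaling (0.36), with median-of-ratios scaling (0.23) and in the rlog table (0.23), and turned to −0.56 with scaling by totals alone. Poly(I:C)-treated KO cells were lower than WT control cells (log2 −0.36, SE 0.085, limma adjusted p = 0.0144), a call lost without WT control 1 or KO Poly(I:C) 2 (adjusted p = 0.114 and 0.103).

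Irak1 (ENSMUSG00000031392, chrX:74013914-74023918), a kinase downstream of IRAK4, and Irak4 (ENSMUSG00000059883, chr15:94543643-94581815) went the other way. Irak1 was at 76.4 and 71.0 CPM in untreated WT, 74.7 and 75.7 in untreated KO, 65.2 and 56.7 in WT control, 79.1 and 82.4 in KO control and 55.6 and 51.9 in Poly(I:C)-treated KO libraries. Irak4 was at 31.8 and 31.7, 32.8 and 31.9, 25.4 and 25.7, 36.6 and 33.3 and 24.3 and 21.6 CPM in the same order of groups. For both, the WT control and Poly(I:C) libraries were below all 6 others. In Poly(I:C)-treated KO cells Irak1 fell by 0.59 on the log2 scale relative to KO control cells (SE 0.085, limma adjusted p = 0.000137). Irak4 fell by 0.60 (SE 0.088, limma adjusted p = 0.000151). Both calls were kept in all 18 other settings. The falls in WT control cells were smaller: −0.28 (SE 0.085, limma adjusted p = 0.0154) for Irak1 and −0.31 (SE 0.088, limma adjusted p = 0.0105) for Irak4. With the deposited scaling they were −0.12 and −0.16 and did not pass (adjusted p = 0.342 and 0.169), and the Irak1 call was also lost without WT untreated 1 or WT control 2 (adjusted p = 0.0621 and 0.133). Of the 45 pairs among the 10 genes, Irak1 and Irak4 had the smallest root mean square distance between centred values over the 10 libraries, at 0.073 log2, against 0.23 for Myd88 and Irak2. This distance grows with the range of the genes, which was 0.67 log2 for Irak1 and 0.76 for Irak4. It was 2.92 for Myd88 and 2.28 for Irak2, so the distances do not rank the pairs by likeness of shape. On the opposite strand Irak4 shares 395 exon bases with Twf1, Irak3 192 with Tmbim4 and Tirap 39 with Srpr. Tirap also shares 446 with Gm39318, Irak2 196 with Gm43963 and Irak3 28 with Gm47009. The deposited table has no row for these last genes.

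Traf6 (ENSMUSG00000027164, chr2:101678429-101701669), which makes the ubiquitin chains that activate the TAK1 kinase, was at 24.7 and 27.0 CPM in untreated WT, 24.3 and 27.7 in untreated KO, 45.0 and 49.0 in WT control, 26.2 and 29.4 in KO control and 42.0 and 46.2 in Poly(I:C)-treated KO libraries. The 4 libraries of WT control and Poly(I:C) were above the 6 others. Traf6 rose in WT control cells (log2 0.86, SE 0.10, limma adjusted p = 4.48e-05), and in KO control cells the difference from untreated cells was 0.097 (SE 0.10, limma adjusted p = 0.568), a difference of responses of −0.76 (SE 0.15, limma adjusted p = 0.00203). That difference was −0.27 with scaling by totals alone (adjusted p = 0.1).

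Traf3 (ENSMUSG00000021277, chr12:111166370-111267153), the ligase of the interferon branch, was at 32.3 and 38.0 CPM in untreated WT, 34.7 and 33.9 in untreated KO, 58.4 and 63.3 in WT control, 47.4 and 50.8 in KO control and 57.5 and 69.1 in Poly(I:C)-treated KO libraries. Unlike in Traf6, the KO control libraries were above all untreated ones. Traf3 rose in WT control cells (log2 0.79, SE 0.11, limma adjusted p = 0.000111) and in KO control cells (log2 0.52, SE 0.11, limma adjusted p = 0.00934). The KO call was lost without KO untreated 2 or KO control 2 (adjusted p = 0.058 and 0.1). The test of the difference between these responses gave −0.28 (SE 0.15, limma adjusted p = 0.17), with a 95% interval of −0.62 to 0.067, and 0.22 with scaling by totals alone. KO control cells were below WT control cells (log2 −0.31, SE 0.11, limma adjusted p = 0.0316), a call that was lost in 4 settings, namely without WT control 2, KO control 1 or KO control 2 (adjusted p = 0.157, 0.154 and 0.0637) and with no filter, and that turned to 0.18 with scaling by totals alone.

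**Figure D2:**
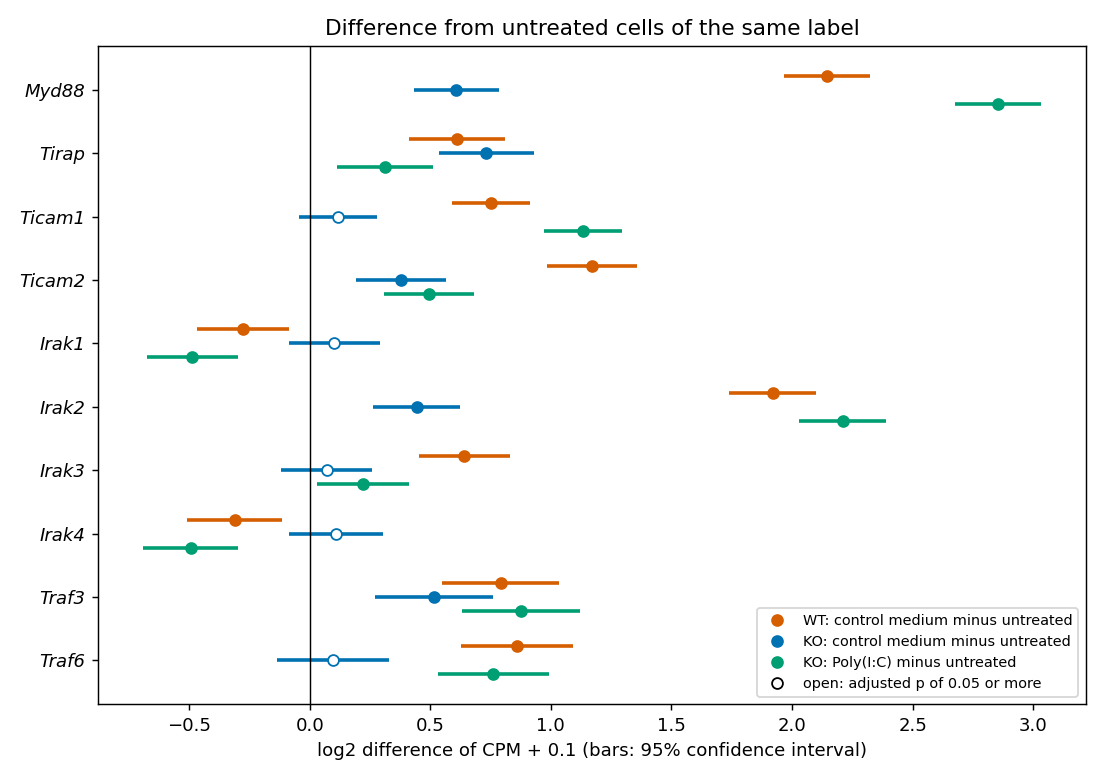
Log2 difference from untreated cells of the same label (horizontal axis, bars are 95% confidence intervals) for each gene: WT in control medium, KO in control medium and KO with Poly(I:C), with open points where the adjusted p was 0.05 or more. Myd88 and Irak2 lie farthest to the right in WT control and Poly(I:C)-treated KO cells, Irak1 and Irak4 lie to the left of 0 there, and the KO control points lie between 0.070 (Irak3) and 0.73 (Tirap).

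Counted over the 10 genes, WT control cells differed from untreated WT cells in 8 genes that rose and 2 that fell. The background was 65.8% of all genes called (33.1% higher and 32.8% lower), out of 13171 tested, so a called gene is common in this comparison. The median log2 difference was 0.77 over the members and −0.0054 over all genes. With the deposited scaling the members split into 8 higher and 0 lower, and with scaling by totals alone into 6 higher and 2 lower, where Tirap and Irak3 lost their calls. KO control cells differed from untreated KO cells in 5 genes that rose (Myd88, Tirap, Ticam2, Irak2 and Traf3) and 0 that fell, with 20% of all genes called (10.9% higher and 9.08% lower) and medians of 0.25 over the members and 0.0044 over all genes. With a replicate block within each label, the same number of members was called and 4358 genes in all, against 2632. Left out singly, KO control 2 brought that count to 2 and KO untreated 2 to 3.

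Set side by side within the control medium, KO cells were lower than WT cells in 7 genes and higher in 2 (Irak1 and Irak4), with 61.1% of all genes called (30.9% higher and 30.2% lower). Tirap did not pass (log2 0.19, SE 0.089, limma adjusted p = 0.0874). The medians were −0.63 over the members and 0.032 over all genes, and the split became 3 higher and 5 lower with scaling by totals alone. The interaction, which asks whether the response to the control medium differs between the labels, was called in 8 of 10 members, 6 lower in KO and 2 higher, with 45.7% of all genes called (22% higher and 23.7% lower). The members' split became 3 higher and 2 lower with scaling by totals alone and 0 higher and 6 lower with the deposited scaling. Under totals alone Ticam2 was at −0.30 (adjusted p = 0.0548) and Irak3 at −0.077 (adjusted p = 0.641), both without a call, as were Ticam1 and Traf6. For Irak1 and Irak4 the interaction was 0.38 (SE 0.12, limma adjusted p = 0.0264) and 0.42 (SE 0.12, limma adjusted p = 0.0197). The Irak1 call was lost without any one of 6 libraries (WT untreated 1, KO untreated 1 or 2, WT control 2, KO control 1 or 2), with adjusted p up to 0.0965, and the Irak4 call without KO untreated 2 or KO control 1 (adjusted p = 0.0613 and 0.0878).

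The 2 comparisons of Poly(I:C)-treated KO cells share the treated libraries, so their values are given side by side and not set against each other. Relative to KO control cells, 5 members rose and 3 fell, with 69.4% of all genes called (32.5% higher and 36.9% lower). The medians were 0.26 over the members and −0.065 over all genes. Relative to untreated KO cells, 8 rose and 2 fell, with 72.1% of all genes called (34.5% higher and 37.6% lower) and medians of 0.63 and −0.038. With scaling by totals alone the first split was 3 higher and 6 lower and the second 3 higher and 5 lower, and the first was 7 higher and 2 lower with the deposited scaling. Traf3 was higher with Poly(I:C) than with the control medium (log2 0.36, SE 0.11, limma adjusted p = 0.0132), its value turned to −0.35 with scaling by totals alone, and it did not pass without KO control 1 or KO Poly(I:C) 2 (adjusted p = 0.0828 and 0.121). Traf6 was higher too (log2 0.67, SE 0.10, limma adjusted p = 0.000238), and at −0.049 with that scaling. In the comparison with untreated cells the smallest rises, those of Tirap (0.31, SE 0.089, limma adjusted p = 0.00915), Ticam2 (0.50, SE 0.083, limma adjusted p = 0.000357) and Irak3 (0.22, SE 0.085, limma adjusted p = 0.0377), turned under that scaling to −0.44, −0.26 and −0.53. Without KO untreated 1 the Tirap and Irak3 calls were lost (adjusted p = 0.099 and 0.277), and the Irak3 call also without KO control 1, KO control 2 or KO Poly(I:C) 1 (adjusted p = 0.0552, 0.0873 and 0.201).

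Poly(I:C)-treated KO and WT control cells, which differ in both label and treatment, were also compared. Of the 10 genes, 3 were higher and 2 lower in the Poly(I:C) cells, with 23.7% of all genes called (11.9% higher and 11.9% lower) and medians of −0.12 over the members and −0.026 over all genes. Myd88 was higher (log2 0.57, SE 0.079, limma adjusted p = 0.0013), and this call was kept in all 18 other settings, as was the lower level of Ticam2. The higher levels of Ticam1 (log2 0.23, SE 0.073, limma adjusted p = 0.048) and Irak2 (log2 0.27, SE 0.081, limma adjusted p = 0.0376) lost their calls in 11 and 9 settings, and without WT control 1 they were 0.17 and 0.20 (adjusted p = 0.263 and 0.242). Ticam1 turned to −0.0031 with scaling by totals alone, where the members split into 1 higher and 6 lower. The count of called members was 2 without WT control 1 or KO Poly(I:C) 2, and 3 without KO Poly(I:C) 1, KO untreated 1, KO control 1 or KO control 2.

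**Figure D3:**
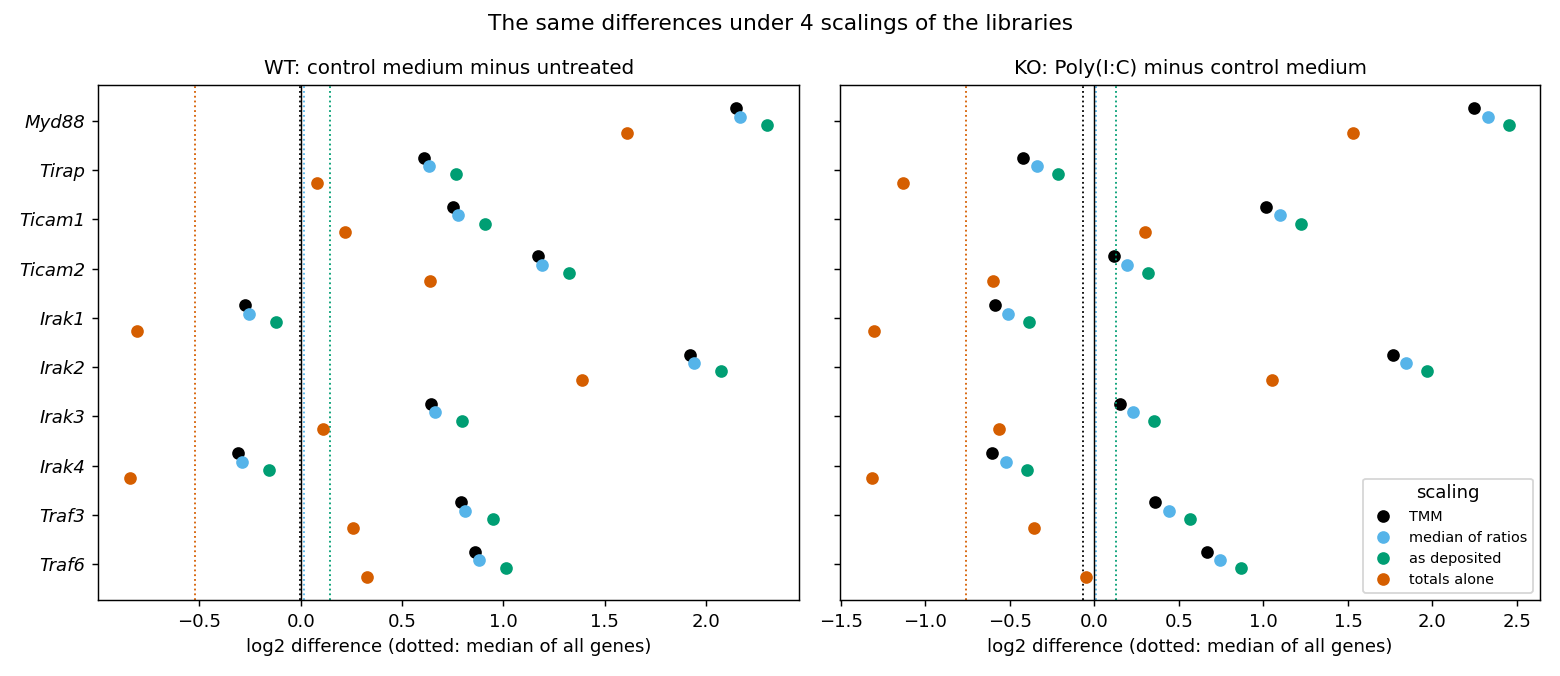
Log2 difference of each gene (horizontal axes) in WT control against untreated WT cells and in KO Poly(I:C) against KO control cells, under 4 ways of scaling the libraries, with dotted lines at the median of all genes under each. Scaling by totals alone moves every gene to the left together with the median of all genes, to −0.52 and −0.76. The order of the 10 genes stays as it is by construction, because a scaling divides all genes of a library by the same factor.

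The deposited totals of the WT control and Poly(I:C) libraries were 41.1 to 51.7 M units and those of the other 6 libraries 25.2 to 26.7 M. With scaling by totals alone the median of all genes moved to −0.52 in the WT control comparison and to −0.76 and −0.77 in the Poly(I:C) comparisons with KO control and untreated KO cells. With the deposited scaling it moved to 0.15, 0.13 and 0.15. In all 4 scalings the 10 genes kept the same order in the 2 comparisons of the plot. Each scaling divides all genes of a library by the same factor. The order is therefore fixed in advance, apart from the pseudocount, and is no test of the results. The calls over all genes with scaling by totals alone were 2267 higher and 7689 lower in WT control against untreated cells, 7672 higher and 2077 lower in KO against WT control cells and 6518 higher and 1695 lower in the interaction. For Poly(I:C)-treated cells they were 2081 higher and 8882 lower against KO control, 2218 higher and 8703 lower against untreated KO and 764 higher and 4237 lower against WT control cells. With the deposited scaling they were 2963 higher and 4934 lower in KO against WT control cells, 2057 higher and 3816 lower in the interaction, 5203 higher and 3758 lower and 5436 higher and 3997 lower for Poly(I:C) against KO control and untreated KO cells; the WT control split was 5157 higher and 3423 lower. Scaled by totals, Traf3 and Traf6 stood 0.40 and 0.71 above the median of all genes in Poly(I:C) against KO control cells, Tirap −0.38 from it, and Irak1 and Irak4 −0.55 and −0.56 from it. By construction such distances from the median hardly depend on the scaling.

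Ratios of 2 members within a library do not depend on how the library is scaled, and are given here per kb of exon. The ratio of Irak2 to Irak1 was 0.995 and 1.2 in the untreated WT libraries, 1.03 and 1.08 in untreated KO, 1.34 and 1.34 in KO control, 4.44 and 5.67 in WT control and 6.59 and 7.14 in Poly(I:C)-treated KO. The transcripts were near parity in untreated cells, and Irak2 exceeded Irak1 several-fold in WT control and Poly(I:C) cells. The ratio of Myd88 to Ticam1, the adaptors at the head of the 2 TLR branches, was 1.73 and 1.78 in untreated WT, 1.90 and 1.65 in untreated KO, 2.54 and 2.44 in KO control, 4.45 and 4.76 in WT control and 5.78 and 5.88 in Poly(I:C)-treated KO libraries. The WT control and Poly(I:C) libraries were above all others. The ratio of Irak3 to Irak4 was 11.9 and 10.6 in untreated WT and 10.9 and 11.5 in KO control libraries, against 22.8 and 20.6 in WT control and 18.6 and 19.2 in Poly(I:C)-treated KO.

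The pair of TRIF and its bridge gave another order. The ratio of Ticam1 to Ticam2 was 2.29 and 2.01 in untreated WT, 2.01 and 2.28 in untreated KO, 1.53 and 1.68 in WT control, 1.72 and 1.85 in KO control and 3.29 and 3.37 in Poly(I:C)-treated KO libraries. It was highest with Poly(I:C) and lowest in WT control cells, groups that were both high in the other 3 ratios. The ratio of Traf3 to Traf6 was 1.94 and 1.85 in KO control libraries and between 1.31 and 1.60 in the 8 others. The ratios are given as descriptions and were not tested.

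**Figure D4:**
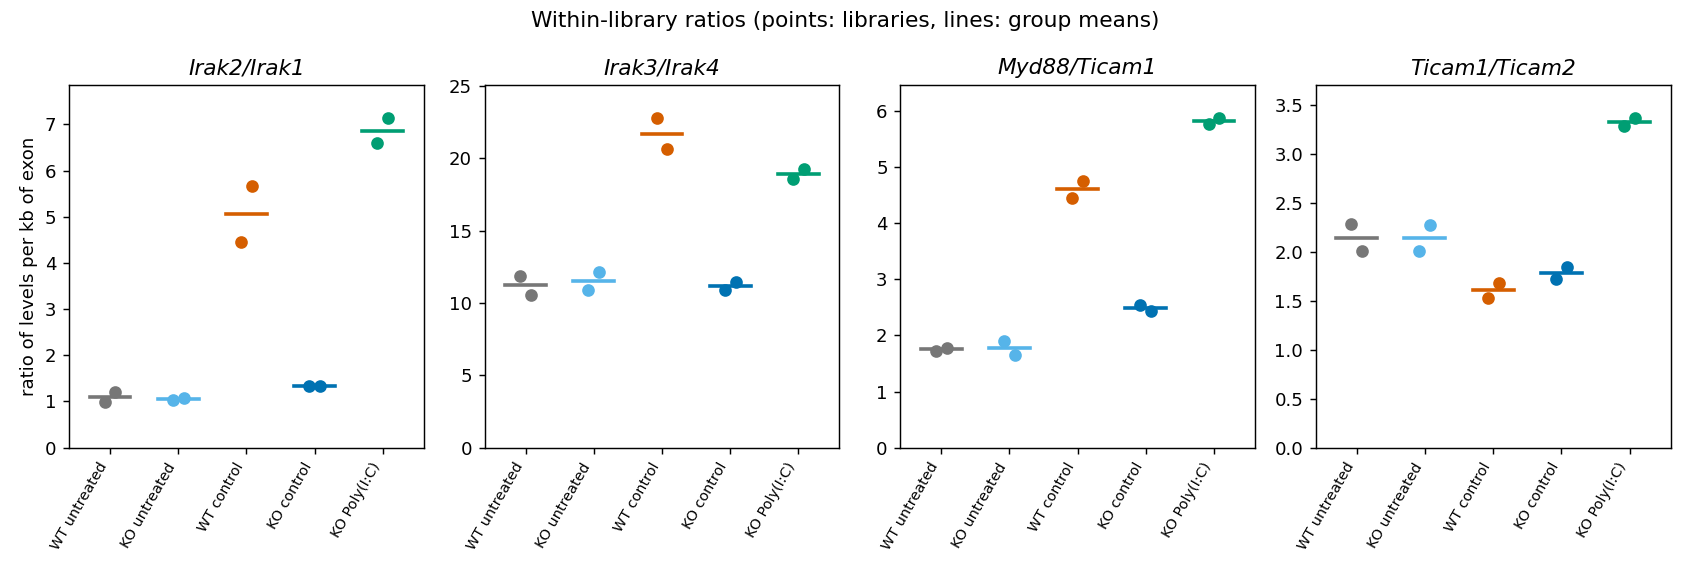
Ratio of 2 genes' levels per kb of exon within each library (vertical axes, linear from 0) for Irak2/Irak1, Irak3/Irak4, Myd88/Ticam1 and Ticam1/Ticam2; points are libraries and lines are means of 2. The first 3 ratios are high in WT control and Poly(I:C)-treated KO libraries, while Ticam1/Ticam2 is high in the Poly(I:C) libraries only.

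Among the other TRAF genes the largest change was that of Traf1. Traf1, an NF-kB-inducible TRAF without a RING domain, was at 9.63 ± 1.40 CPM in untreated WT, 9.67 ± 0.0318 in untreated KO, 429.6 ± 56.3 in WT control, 16.6 ± 1.25 in KO control and 504 ± 0.150 in Poly(I:C)-treated KO cells (log2 5.47, SE 0.12, limma adjusted p = 5.43e-10 for WT control against untreated cells). Traf2, the ligase of TNF receptors, rose by 1.56 in WT control and 0.37 in KO control cells (limma adjusted p = 2.15e-07 and 0.0179). Traf7 was at 61.6 ± 0.0653 CPM in untreated WT and 59.3 ± 0.00742 in WT control cells (log2 −0.055, SE 0.067, limma adjusted p = 0.493). Of the 5 other TRAF genes, 3 rose and 0 fell in WT control cells, 2 rose in KO control cells, and 3 rose with Poly(I:C) relative to KO control cells. Over all genes 33.1%, 10.9% and 32.5% were higher in these comparisons, and 65.8%, 20% and 69.4% were called in either direction. Counted in either direction, the shares in WT control and Poly(I:C)-treated cells were not above the background. With 5 genes in the list, whether the shares of genes that rose differ from the background was not tested. With scaling by totals alone the counts became 2 higher and 2 lower in WT control cells. For Poly(I:C) against KO control cells they became 2 higher and 1 lower.

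Other adaptors and Myddosome regulators (18 of 19 listed genes tested) held, in WT control cells, 14 of 18 genes higher and 2 lower (median log2 0.59). In KO control cells the list held 4 of 18 genes higher and 3 lower (median log2 0.064), and with Poly(I:C) against KO control cells 14 of 18 genes higher and 4 lower (median log2 0.99). The background over all genes was 65.8% called in the first of these comparisons, 20% in the second and 69.4% in the last. Tnfaip3, which encodes the ubiquitin editor A20, rose by 3.53 in WT control, 0.79 in KO control and 3.77 in Poly(I:C)-treated relative to KO control cells. Peli1, a ubiquitin ligase of the Pellino family, had an interaction of −2.91 and rose by 4.01 with Poly(I:C). Peli2, of the same family, fell by 3.04 in WT control and by 0.75 in KO control cells. Wdfy1, which recruits TRIF to TLR3, was the one listed gene that differed between untreated KO and WT cells (log2 −2.27, SE 0.11, limma adjusted p = 1.92e-05; 10.3 ± 1.64 against 50.1 ± 4.51 CPM). With scaling by totals alone the counts were 8 higher and 5 lower in WT control cells and 9 higher and 6 lower with Poly(I:C).

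Among receptors with a TIR domain (15 of 17 tested), WT control cells held 9 of 15 genes higher and 4 lower (median log2 0.93), KO control cells 2 of 15 genes higher and 2 lower (median log2 −0.042), and Poly(I:C)-treated against KO control cells 12 of 15 genes higher and 3 lower (median log2 1.10). Tlr3 rose by 4.05 and Tlr11 by 3.08 in the last of these, and Tlr5, the flagellin receptor, fell by 3.76 in WT control cells. Among kinases and interferon regulatory factors below the adaptors (13 of 13 tested), the counts were 9 of 13 genes higher and 1 lower (median log2 0.36) in WT control cells, 2 of 13 genes higher and 0 lower (median log2 0.10) in KO control cells and 8 of 13 genes higher and 2 lower (median log2 0.41) with Poly(I:C) against KO control. Irf7, the master factor of type I interferon genes, rose by 4.35, 0.74 and 5.05 in these comparisons. With scaling by totals alone, the receptor counts for WT control and Poly(I:C)-treated cells were 8 higher and 4 lower and 7 higher and 4 lower, and those of kinases and regulatory factors 3 higher and 6 lower and 4 higher and 8 lower. The genes named here kept their signs in these comparisons. Over all genes 65.8%, 20% and 69.4% were called in the WT control, KO control and Poly(I:C) comparisons, with medians of −0.0054, 0.0044 and −0.065. The share of called receptors and of called kinases and factors in KO control cells lay near that background.

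The genes with the most alike profiles to each member, by root mean square distance in log2 over the 10 centred libraries among all other tested genes, were as follows. Nearest to Myd88 were Dnaja1 (0.082) and Il13ra1 (0.084), and to Irak2 Lyn (0.091) and Slc25a25 (0.091), of which Lyn is a Src family kinase and Dnaja1 a co-chaperone. Nearest to Ticam1 were Ppp2r1a (0.051) and Pdzd11 (0.056), to Ticam2 Sdc1 (0.10) and AA414768 (0.11), and to Tirap Itfg2 (0.077) and Clcn4 (0.11). Irak1 was nearest to Pdxdc1 (0.049) and Lars (0.054), Irak3 to Slc41a2 (0.065) and Trub2 (0.069) and Irak4 to Fbxo45 (0.051) and Mtfr1l (0.059). Traf3 was nearest to Ykt6 (0.082) and Sh3bp5 (0.092) and Traf6 to Eif4e2 (0.063) and Acbd3 (0.071). The distances describe these 10 libraries only.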

How the data were processed

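RNA of 10 libraries was measured with the TruSeq stranded mRNA kit, per the labels' protocols. DESeq2, RSEM 1.2.12, STAR 2.4.0d and Trim Galore 0.2.8 are named in the submitters' processing notes without their roles. Not given in the sources used here are the genome build and the strand setting of the counting. The main table as deposited by the authors holds whole-number signal values per gene, which are not raw reads: in each library low values are skipped or doubled at regular steps, as reads multiplied by 1 factor and rounded would be. A search in steps of 0.0005 gave factors of 0.687 to 1.90, used for the depth only. The authors also deposited rlog values on a log2 scale. Of 45318 identifiers, 44585 matched a symbol in GENCODE M21 (GRCm38), whose coordinates are printed.

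Each deposited value was divided by the library total times a trimmed mean of M values (TMM) factor, trimming 30% of M and 5% of A, and given as CPM of deposited units. The test was limma 3.58.1 in R 4.3.3 with a trend on log2(CPM + 0.1), 1 coefficient per group over all 10 libraries (5 residual and 4.82 prior degrees of freedom), for 8 comparisons, with Benjamini-Hochberg adjustment over 13171 genes and a threshold of 0.05. Differences are on that log2 scale and understate changes of low genes. The script was tested on simulated data. The members, gene lists, tests and settings were chosen with earlier results of these data known. Genes of the lists are named by size of change (at most 2 per list and comparison), with any gene of the short TRAF list; the 2 nearest genes are named for each member. Promoters are from RefSeq. Protein sequences were not analysed here. Same-numbered libraries deviated together (correlation over 0.1) in 6 of 10 pairs of groups, 4 of 4 within a label (0.30 to 0.48) and 2 of 6 between labels. The labels do not say that a number marks a shared animal or day, so the test has no block, and blocks over all libraries and within each label were tried. Alternatives were 3 other scalings, pseudocount 1, no filter, the rlog table, the replicate blocks, fits on the compared groups only, and leaving out each of 10 libraries.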

Additional observations from a re-analysis of the deposited data

Results flagged for a closer look

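The responses of the KO and WT labels to the control medium differed by the interaction test in 8 of the 10 genes, each given as the log2 response of KO minus that of WT cells. The same test called 45.7% of all genes (22% higher and 23.7% lower), so a call here is common. The KO response was smaller for Myd88 (−1.54), Ticam1 (−0.64), Ticam2 (−0.79), Irak2 (−1.48), Irak3 (−0.57) and Traf6 (−0.76). It was larger for Irak1 (0.38) and Irak4 (0.42), where the WT response was a fall. With scaling by totals alone the calls of Ticam1 (−0.14), Ticam2 (−0.30), Irak3 (−0.077) and Traf6 (−0.27) were lost, and with the deposited scaling those of Irak1 (0.22) and Irak4 (0.26). The 2 responses share no library, and the genotype rests on the labels.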

How the results depend on the processing

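Of 55 calls of a member in a comparison, 28 kept direction and side of the threshold in all 18 alternatives, among them every call of Myd88 in the 7 comparisons where it was called. Among 80 results in 18 settings, 1335 values were the same in direction and call, 66 lost and 12 gained a call, and 27 changed sign. The cause of each change below was not tested. With scaling by totals alone, the signs turned for Traf6 in untreated KO against WT cells (−0.0039), Traf3 in KO against WT control cells (0.18) and in the interaction (0.22), and in Poly(I:C)-treated KO cells for Ticam2 (−0.60), Irak3 (−0.56), Traf3 (−0.35) and Traf6 (−0.049) against KO control, Tirap (−0.44), Ticam2 (−0.26) and Irak3 (−0.53) against untreated KO, and Ticam1 (−0.0031) and Traf3 (−0.18) against WT control. With the deposited scaling, Traf6 in untreated KO against WT cells (−0.012) and Tirap in the interaction (−0.040) turned. Leaving out single libraries, the values ran from −0.0062 to 0.13 (Irak3) and −0.017 to 0.19 (Traf6) in KO control against untreated cells, and from −0.079 to 0.18 for Traf3 in Poly(I:C) against WT control cells. In untreated KO against WT cells they ran from −0.0094 to 0.14 (Tirap), −0.023 to 0.080 (Irak1), −0.11 to 0.063 (Irak2), −0.024 to 0.15 (Irak3), −0.15 to 0.085 (Traf3) and −0.090 to 0.10 (Traf6), none of them called.

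Over all genes, KO Poly(I:C) against WT control cells gave 2658 calls among 20687 genes with no filter. With only the compared groups fitted it gave 2386 calls among 13171 genes. The count of members called in the interaction was 5 with scaling by totals alone, where 8213 of 13171 genes were called. For KO Poly(I:C) against WT control cells it was 3 with no filter and 3 with only the compared groups fitted, and 2 to 5 leaving out single libraries, and for KO control against untreated cells 2 to 5. Over all genes, calls between untreated labels numbered 22, 14 with no filter, 99 with a replicate block, 2 with only these groups fitted and 12 to 69 leaving out single libraries (lowest without WT untreated 1, highest without WT untreated 2, and 14 without KO untreated 2). KO Poly(I:C) against WT control gave 3128 calls, 5001 with scaling by totals alone and 1250 to 3353 without single libraries, with 1250 without WT control 1 and 1503 without KO Poly(I:C) 2. KO control against untreated KO gave 2632 and 1073 to 2833, with 1579, 1256, 1339 and 1073 without KO untreated 1, KO untreated 2, KO control 1 and KO control 2. With the replicate block Tirap passed in KO against WT control cells (adjusted p = 0.0478) and in Poly(I:C) against WT control cells (adjusted p = 0.0448), and no other call of a member changed. A replicate block within each label, chosen after seeing the data, fitted the 4 comparisons within a label and the interaction. It raised the calls over all genes in KO control against untreated cells to 4358, and Irak3 passed in Poly(I:C) against KO control cells (adjusted p = 0.0423); no other call of a member changed. The correlations of same-numbered deviations were 0.30 to 0.48 within a label and −0.014 to 0.194 between labels. Estimated reads were higher in replicate 2 of both WT groups and in replicate 1 of all 3 KO groups. Where 1 library of a group was left out, the other was assumed to vary like the libraries of the other groups. The planned fits with edgeR and DESeq2 were not run, because the deposited table holds no raw counts.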

Other observations

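Some members share exon bases with a gene on the opposite strand, and several of these neighbours changed in the same comparisons. They were looked at after the values of the members were seen. Acaa1a, a peroxisomal thiolase of fatty acid oxidation, begins head to head with Myd88 and shares 290 exon bases with it. It was at 85.9 ± 8.25 CPM in untreated WT, 80.7 ± 9.35 in untreated KO, 167 ± 9.89 in WT control, 81.8 ± 1.12 in KO control and 211 ± 23.2 in Poly(I:C)-treated KO cells (SD, n = 2). It rose in WT control cells (log2 0.96, limma adjusted p = 2.67e-05) and in Poly(I:C)-treated relative to KO control cells (log2 1.36, limma adjusted p = 1.73e-06), while in KO control cells the difference was 0.025 (limma adjusted p = 0.903). Tmbim4, which shares 192 exon bases with Irak3, rose in WT control cells (log2 0.57, limma adjusted p = 0.000675). It also rose in Poly(I:C)-treated over untreated KO cells (log2 0.85, limma adjusted p = 3.21e-05). It differed by −0.073 in KO control cells (limma adjusted p = 0.673) and had an interaction of −0.65 (limma adjusted p = 0.00484). In Poly(I:C)-treated KO against WT control cells Tmbim4 was higher (log2 0.32, limma adjusted p = 0.0499), where Irak3 was lower (−0.36). Against KO control cells Tmbim4 was higher by 0.93 (limma adjusted p = 2.04e-05), where Irak3 was at 0.15 without a call. Srpr, a receptor of the signal recognition particle, shares 39 exon bases with Tirap. It rose in WT control (log2 1.06, limma adjusted p = 6.92e-07), KO control (log2 0.23, limma adjusted p = 0.0466) and Poly(I:C)-treated cells (log2 1.14, limma adjusted p = 2.59e-07) over untreated cells, as Tirap did. The interaction of Srpr was −0.83 (limma adjusted p = 0.000118), beside 0.12 for Tirap. Relative to KO control cells Srpr was higher with Poly(I:C) (log2 0.91, limma adjusted p = 1.67e-06), where Tirap was lower (−0.42). Twf1, an actin-binding protein gene that shares 395 exon bases with Irak4, rose in WT control cells (log2 0.37, limma adjusted p = 0.000331), where Irak4 fell. How much of any of these values comes from the shared bases was not tested.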
